A study of Mus musculus with 8 samples.

Results

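The genes described are 10 members of the NF-kB system: the subunits Nfkb1, Nfkb2, Rel and Relb, the inhibitors of the IkB family Nfkbia, Nfkbid, Nfkbiz and Bcl3, and the ubiquitin enzymes Tnfaip3 and Birc3. They were listed by name, with earlier results of these data known. All 10 are among the 55413 genes of the bulk table and the 15083 genes of the single-cell table. Group 2 innate lymphoid cells (ILC2s), lymphocytes without antigen receptors that make type 2 cytokines, were sorted from the lungs of wild type C57BL/6 mice. Bulk full-length libraries (Smart-Seq2) of 2000 ILC2s each came from female mice given IL-33 through the nose for 3 days, with dopamine (3 libraries) or with its vehicle PBS (3 libraries), so every bulk library had been exposed to IL-33. A 10x droplet pool from male mice held 8 antibody hashtags, which the cell table assigns to PBS (hashtags 1 and 2), IL-33 (3, 4 and 5) and IL-33 plus dopamine (6, 7 and 8). The name of the PBS group gives no IL-33, and the label of the pool does not describe that group. The ages of the mice are not stated, and the labels do not say that a hashtag is 1 mouse, so p-values measure the spread between these samples, which may be technical.

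NF-kB is a family of transcription factors whose subunits pair and are held in the cytoplasm by IkB proteins until a receptor signal destroys the inhibitor. The IL-33 receptor, encoded by Il1rl1 and Il1rap, uses the MyD88 adaptor and IRAK and TRAF proteins to reach the IkB kinase, and in ILC2s this route leads to cytokine production. Several inhibitors of the pathway, among them Nfkbia and Tnfaip3, are themselves NF-kB targets, so their transcripts form a feedback loop.

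The cell table kept 9076 cells with no barcode shared between hashtags, 311 to 1516 cells per hashtag and 1397576 to 9268932 UMIs per hashtag. The median number of UMIs per cell was 4201 in hashtag 8 and 5692 in hashtag 3, the extremes. The bulk values carry no read counts, so their depth is unknown, and PBS library 2 had the fewest genes with TPM (a level corrected for transcript length and scaled to the same total in every library) of at least 1, 9822 against 10525 to 11745 in the other libraries. All 11 ILC2 markers were in both tables, with summed levels of 7144 to 9163 CPM (UMIs of a hashtag scaled to sum to 1000000) over hashtags and 2553 to 3899 TPM over bulk libraries. Of the 8 macrophage and monocyte markers, 3 were in the droplet data, and they summed to at most 4.32 CPM in any hashtag. Other marker lists were higher there. Over hashtags the T cell markers summed to 926.6 to 1198 CPM and the NK cell and ILC1 markers to 174.67 to 225.39 CPM. The lung epithelium markers summed to 97.53 to 148.92 CPM and the B cell markers to 68.24 to 97.42 CPM. In bulk the 4 fibroblast markers were at 0 in every library, but markers of other immune cells were not absent. The 8 macrophage and monocyte markers summed to 21.23 to 715.9 TPM, highest in dopamine library 2, the 5 dendritic cell markers to 221.4 to 567.4 TPM and the 5 B cell markers to 54.36 to 288.3 TPM.

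All 10 are protein-coding genes in the GENCODE annotation of GRCm38. The subunit genes are Nfkb1 at chr3:135584655-135691547 (minus strand), Nfkb2 at chr19:46304320-46312385 (plus strand), Rel at chr11:23736847-23770970 (minus strand) and Relb at chr7:19606217-19629438 (minus strand). The inhibitor genes are Nfkbia at chr12:55489410-55492647 (minus strand), Nfkbid at chr7:30421732-30428746 (plus strand), Nfkbiz at chr16:55811375-55838899 (minus strand) and Bcl3 at chr7:19808462-19822770 (minus strand). The ubiquitin enzymes are Tnfaip3 at chr10:19000910-19015657 (minus strand) and Birc3 at chr9:7848699-7873186 (minus strand). Relb, Nfkbid and Bcl3 lie on the same chromosome.

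Promoter sequences of 250 bases before and 50 bases after a RefSeq transcription start (GRCm38.p6) were found for 7 of the 10 genes, with 12 promoters in all, and the table matched none for Nfkb1, Relb and Nfkbiz. The kappaB motif, the sequence that NF-kB dimers bind, was searched by its consensus on both strands, and overlapping matches were counted separately. It was present in 8 of these 12 promoters, from 6 of the 7 genes, and in 1480 of all 32851 promoters of the same length (4.51%). The Nfkb2 promoters from chr19:46305445 and from chr19:46305680 overlapped and shared the same match, GGGACTTTCC, which was counted in both. The Nfkbid promoters from chr7:30421481 and chr7:30423025 and the Tnfaip3 promoter from chr10:19011914 had no match. The Birc3 promoter had no match in this window. The AP-1 motif TGANTCA was found in promoters of 2 of the genes, Nfkb2 and Tnfaip3 (7.81% of all promoters). The cAMP response element TGACGTCA was found in 1 gene, Nfkbid (1.79% of all promoters), at position -51, counted from the start site to the first base of the match. A match is a description of letters and not a site of binding. The promoters of 5 genes whose transcripts the results below turn on are shown 5′ to 3′ on the strand of the gene, with kappaB matches, and in Nfkbid also the cAMP response element, in capitals.
Nfkb2, chr19:46304487-46304786, plus strand: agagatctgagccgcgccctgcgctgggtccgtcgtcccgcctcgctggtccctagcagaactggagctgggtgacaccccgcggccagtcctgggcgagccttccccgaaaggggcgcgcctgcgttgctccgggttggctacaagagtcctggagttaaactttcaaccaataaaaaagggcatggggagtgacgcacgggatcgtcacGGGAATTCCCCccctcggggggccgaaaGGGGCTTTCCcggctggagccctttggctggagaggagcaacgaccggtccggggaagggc
Rel, chr11:23770920-23771219, minus strand: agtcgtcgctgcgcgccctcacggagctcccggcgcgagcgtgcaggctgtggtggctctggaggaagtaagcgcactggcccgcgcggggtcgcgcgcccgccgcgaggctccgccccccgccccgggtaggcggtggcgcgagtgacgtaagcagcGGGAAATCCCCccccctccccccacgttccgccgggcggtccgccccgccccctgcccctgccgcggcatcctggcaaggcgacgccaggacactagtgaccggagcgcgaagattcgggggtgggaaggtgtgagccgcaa
Nfkbia, chr12:55492598-55492897, minus strand: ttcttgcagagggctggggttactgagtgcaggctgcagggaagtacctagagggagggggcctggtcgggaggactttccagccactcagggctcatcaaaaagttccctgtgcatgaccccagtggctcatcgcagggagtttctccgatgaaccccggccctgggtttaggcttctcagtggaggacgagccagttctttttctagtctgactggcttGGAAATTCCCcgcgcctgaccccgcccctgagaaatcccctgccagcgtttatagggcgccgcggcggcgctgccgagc
Nfkbid, chr7:30422156-30422455, plus strand: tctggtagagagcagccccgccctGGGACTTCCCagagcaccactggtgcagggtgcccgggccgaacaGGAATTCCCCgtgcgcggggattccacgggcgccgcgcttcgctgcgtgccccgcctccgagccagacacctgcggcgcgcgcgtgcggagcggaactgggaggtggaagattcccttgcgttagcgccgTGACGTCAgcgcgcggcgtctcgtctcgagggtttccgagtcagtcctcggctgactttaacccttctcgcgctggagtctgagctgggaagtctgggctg
Tnfaip3, chr10:19015361-19015660, minus strand: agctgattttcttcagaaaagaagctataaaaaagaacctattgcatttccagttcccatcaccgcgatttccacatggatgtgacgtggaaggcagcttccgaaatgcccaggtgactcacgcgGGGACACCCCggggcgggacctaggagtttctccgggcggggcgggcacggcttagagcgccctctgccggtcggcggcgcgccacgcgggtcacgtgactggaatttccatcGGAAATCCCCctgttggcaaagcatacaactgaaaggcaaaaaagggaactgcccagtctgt

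In the 5 sequences the kappaB matches of Nfkbia (-29) and Nfkb2 (-39, -38 and -11) lay close before the start site. Tnfaip3 had a match at -12 and another at -125, the pair in Rel overlapped at -92 and -91, and those of Nfkbid lay farther away, at -226 and -181. The pairs in Rel and at -39 and -38 in Nfkb2 each read as 1 run of capitals.

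In the bulk libraries Nfkbia was by far the most abundant of the 10 transcripts, and Rel and Bcl3 were the least abundant. The mean level of Nfkbia, which encodes the classical inhibitor that is degraded on receptor signalling, was 4887 TPM with IL-33 plus PBS and 5309 TPM with IL-33 plus dopamine. With PBS the next levels were Nfkb1 at 334 ± 125, Tnfaip3 at 205 and Nfkbiz at 133 TPM (SD, n = 3), and the ranges of every pair of neighbours below Nfkbia overlapped. With dopamine the order changed to Tnfaip3 at 848, Nfkbiz at 380.0 and Nfkb1 at 285 TPM, and the ranges of Nfkbia, Tnfaip3, Nfkbiz and Nfkb1 followed each other without overlap. Nfkbid came next at 220.4 TPM, and its range overlapped with that of Nfkb1.

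The first comparison asked how dopamine given with IL-33 differed from its vehicle in the bulk libraries. Tnfaip3, Nfkbiz, Nfkbid, Birc3, Rel and Relb had a higher value in every dopamine library than in any PBS library, and Nfkb1, Nfkb2, Nfkbia and Bcl3 did not. None of the 10 genes passed limma at an adjusted p under 0.05, where 0.0356% of all 11222 tested genes did, 4 in number. At an unadjusted p under 0.05 there were 7 of the 10, against 24.1% of all genes. With the deposited TPM the median of all tested genes was itself 0.49 higher with dopamine on the log2(TPM + 1) scale, against 0.05 after median-of-ratios scaling, so a second value for each change has this median subtracted and is called relative to all genes. In bulk samples a different share of a cell type and a different amount of RNA per cell cannot be told apart.

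Tnfaip3, whose product removes activating ubiquitin chains from signalling complexes, was at 733.79, 849.04 and 961.83 TPM with dopamine and at 374.27, 77.90 and 163.96 TPM with PBS. The lowest dopamine library was above the highest PBS library. The log2 fold change was 2.31 ± 0.45 (SE), or 1.82 relative to all genes (limma adjusted p = 0.0832). PBS library 2, the library with the fewest genes detected, held the lowest value, and without it the relative change was 1.44.

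Nfkbiz, which encodes a nuclear co-activator of NF-kB, had nearly equal values in the dopamine libraries, 383.32, 367.88 and 388.67 TPM. Its PBS libraries were at 215.93, 52.01 and 131.07 TPM, all below the dopamine libraries. The log2 fold change was 1.73 ± 0.42, or 1.23 relative to all genes (limma adjusted p = 0.0876). Nfkbid, which encodes a nuclear IkB protein, was at 172.44, 195.88 and 293.04 TPM with dopamine and at 97.89, 62.64 and 114.70 TPM with PBS. Here too the groups did not overlap, and the log2 fold change was 1.26 ± 0.30, or 0.77 relative to all genes (limma adjusted p = 0.0842). The third atypical inhibitor, Bcl3, could not be described by a mean. It was listed at 110.71, 0 and 6.90 TPM with dopamine and at 9.69, 7.28 and 0.38 TPM with PBS, and a single dopamine library made the difference positive.

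Birc3, which encodes an E3 ubiquitin ligase of the inhibitor-of-apoptosis family, was at 98.03, 99.40 and 113.68 TPM with dopamine and at 63.43, 17.89 and 48.75 TPM with PBS, again without overlap (log2 fold change 1.41 ± 0.43, relative 0.92, limma adjusted p = 0.112). Nfkbia was at 4956.20, 5257.34 and 5714.67 TPM with dopamine and at 3972.70, 4717.41 and 5972.26 TPM with PBS. These ranges overlapped throughout, and the log2 fold change was 0.14 with a 95% interval of -0.19 to 0.47. Relative to all genes it was -0.36, against 0.29 with quantile normalization, and after median-of-ratios scaling the change was -0.41.

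Among the subunits, Rel, which encodes c-Rel, was at 40.40, 38.72 and 39.05 TPM with dopamine and at 30.22, 6.88 and 15.38 TPM with PBS. The dopamine libraries lay close together above all PBS libraries, with a log2 fold change of 1.34 ± 0.49, or 0.85 relative to all genes (limma adjusted p = 0.151). Relb, the subunit of the non-canonical pathway, was at 101.06, 136.74 and 132.94 TPM against 75.08, 33.18 and 80.57 TPM, and its groups no longer separated after median-of-ratios scaling. Nfkb2, the precursor that pairs with RelB, was at 104.69, 131.29 and 140.35 TPM against 104.75, 23.60 and 48.33 TPM, and the ranges touched, since PBS library 1 was level with dopamine library 1. Nfkb1 went the other way. Its dopamine libraries were at 313.57, 241.80 and 298.70 TPM and its PBS libraries at 476.37, 285.35 and 240.80 TPM. The log2 fold change was -0.18 ± 0.26, or -0.67 relative to all genes, with overlapping groups. After median-of-ratios scaling the dopamine libraries, at 194.63 to 260.66, were all below the PBS libraries, at 293.61 to 447.79. PBS library 2 held the lowest PBS value of Rel, Relb, Nfkb2 and Birc3, and also of Nfkbiz and Nfkbid. Without it the changes relative to all genes were 0.52 for Rel in place of 0.85, 0.33 for Relb in place of 0.56, 0.48 for Nfkb2 in place of 0.82 and 0.57 for Birc3 in place of 0.92. For Nfkbiz the change was 0.85 in place of 1.23, and for Nfkbid 0.69 in place of 0.77.

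**Figure D1:**
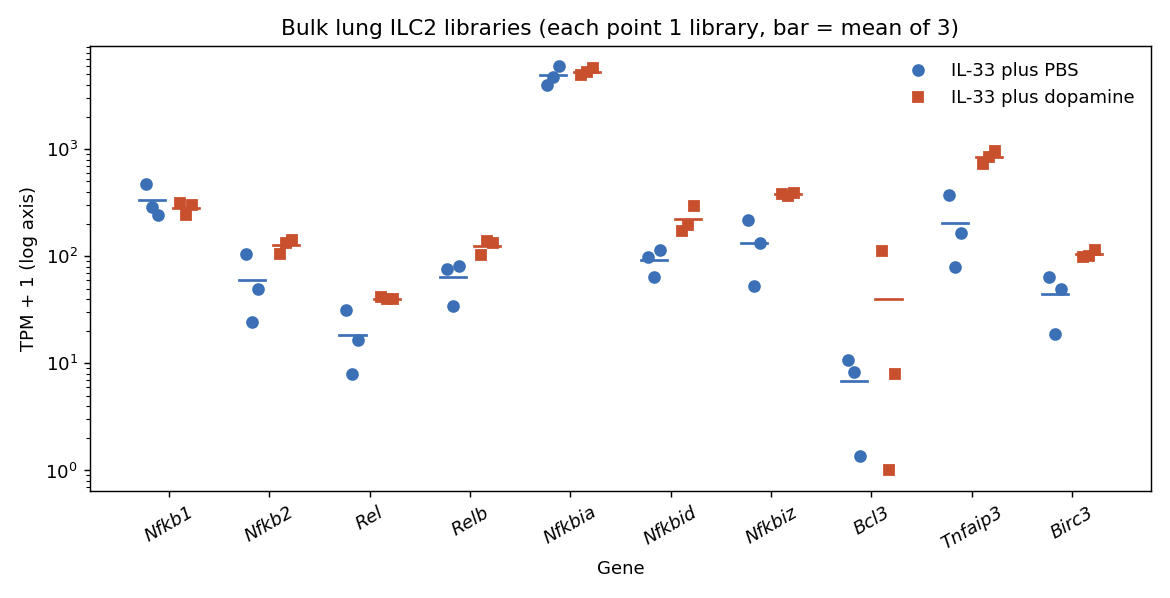
TPM + 1 on a log axis for the 10 genes in each bulk library, with IL-33 plus PBS as circles, IL-33 plus dopamine as squares and bars at the mean of 3 libraries. The groups separate in Rel, Relb, Nfkbid, Nfkbiz, Tnfaip3 and Birc3, and Nfkbia is at 3972.70 to 5972.26 TPM over both groups.

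Counted over the genes, 6 of 10 were higher with dopamine without overlap between the groups, against 23.5% of all tested genes, and none was lower, against 6.57%. After median-of-ratios scaling the counts were 5 higher (13.4% of all genes) and 1 lower (15.3%), the last being Nfkb1. PBS library 1 stood closest to the dopamine libraries in several of these genes. Without it, 6 of the 10 passed limma, among 1536 of all genes: Nfkb2, Rel, Nfkbid, Nfkbiz, Tnfaip3 and Birc3. The same 6 passed with array weights, which weigh libraries by their spread, among 2800 genes.

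Signatures from marker lists of other lymphocytes and from handling genes also differed between the bulk groups. The summed level of 10 T cell markers was 1704 to 2203 TPM with dopamine and 1152 to 1671 TPM with PBS. That of 8 NK cell and ILC1 markers was 369.2 to 612.7 against 90.4 to 273 TPM. That of 5 ILC3 markers was 110 to 240.6 against 18.64 to 101.8 TPM, and no marker of these 3 lists was at 0 in all libraries. Of 8 tested T cell markers, 4 were higher without overlap (2 after scaling). Of 7 tested NK cell and ILC1 markers there were 5 (1 after scaling), and of 5 ILC3 markers 3 (1 after scaling). The shares of all genes were 23.5% and, after scaling, 13.4%. The 22 immediate early and handling genes summed to 12250 to 19220 TPM with dopamine and to 3530 to 8141 TPM with PBS, and 17 of them were higher without overlap (10 after scaling), against 23.5% (13.4%) of all genes. The part of these signatures in the differences of the NF-kB genes was not tested.

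In the droplet pool the same question was asked of hashtags 6, 7 and 8 (IL-33 plus dopamine) against hashtags 3, 4 and 5 (IL-33). All 10 genes had a positive log2 fold change, from 0.06 for Tnfaip3 to 0.40 for Bcl3, and none passed edgeR, where 0.0284% of 10559 genes did (3 genes, all lower). At an unadjusted p under 0.05 there were 4 of the 10, against 9.47% of all genes, and DESeq2 called 0 of the 10. The median change of all genes was 0.

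Nfkbid was the gene with the smallest p. It stood at 307.15, 279.49 and 344.91 CPM in hashtags 6, 7 and 8 and at 248.68, 234.38 and 246.70 CPM in hashtags 3, 4 and 5. It was also the single gene of the 10 whose groups did not overlap, where 7.81% of all genes were higher without overlap and 6.93% lower. The log2 fold change was 0.36 ± 0.09 (edgeR adjusted p = 0.304), a 1.28-fold difference. After thinning every cell to 2000 UMIs, which left out 2 cells of the IL-33 group and 1 of the dopamine group, Nfkbid was found in 34.5%, 32.5% and 35.6% of cells in hashtags 3, 4 and 5 and in 40.2%, 37.8% and 45.0% in hashtags 6, 7 and 8. Unthinned shares were 58.6% to 63.8% and 64.4% to 66.5%. The pool holds no cell type known to lack the gene. Lyz2, a macrophage gene, was found in at most 0.271% of thinned cells of a hashtag.

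Rel stood at 267.22, 359.07 and 354.33 CPM with dopamine and at 241.13, 237.13 and 275.07 CPM with IL-33. Hashtags 7 and 8 lay above all IL-33 hashtags and hashtag 6 lay among them. The log2 fold change was 0.39 ± 0.12 (edgeR adjusted p = 0.404), and the thinned share of cells with a Rel UMI was 32.5% against 26.3% (49.3% and 44.1% unthinned).

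Birc3 stood at 138.41, 130.36 and 173.31 CPM against 133.56, 115.99 and 117.65 CPM, with a log2 fold change of 0.27 ± 0.12 that was 0.11 without hashtag 8. Bcl3 had the fewest UMIs, at 11.56, 16.00 and 13.58 CPM against 12.30, 9.44 and 9.18 CPM. Hashtag 6 with dopamine was below hashtag 3 with IL-33, so these groups overlapped.

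Tnfaip3, which had the largest difference in bulk, differed little here. Its levels were 1063.48, 996.03 and 1165.76 CPM with dopamine and 1055.57, 1053.35 and 996.10 CPM with IL-33, and the 95% interval of the log2 fold change was -0.11 to 0.23. The bulk interval was 1.32 to 3.31, which includes the 0.49 by which the median of all genes was higher there. Relative to all genes the bulk change was 1.82. The mice of the bulk libraries were female, the droplet mice male, and the libraries and the scaling of another kind, so these differences between the data sets cannot be told apart. Nfkbia had an interval of -0.04 to 0.29 and Nfkb2 of -0.11 to 0.26. The intervals of Nfkb1 (-0.02 to 0.49), Nfkbiz (0.00 to 0.45) and Relb (-0.07 to 0.41) reached 0, and in each of these genes hashtag 8 was the highest of the 6. Without it the log2 fold changes were 0.06 for Nfkb1, 0.08 for Nfkbiz and 0.03 for both Relb and Nfkbia.

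**Figure D2:**
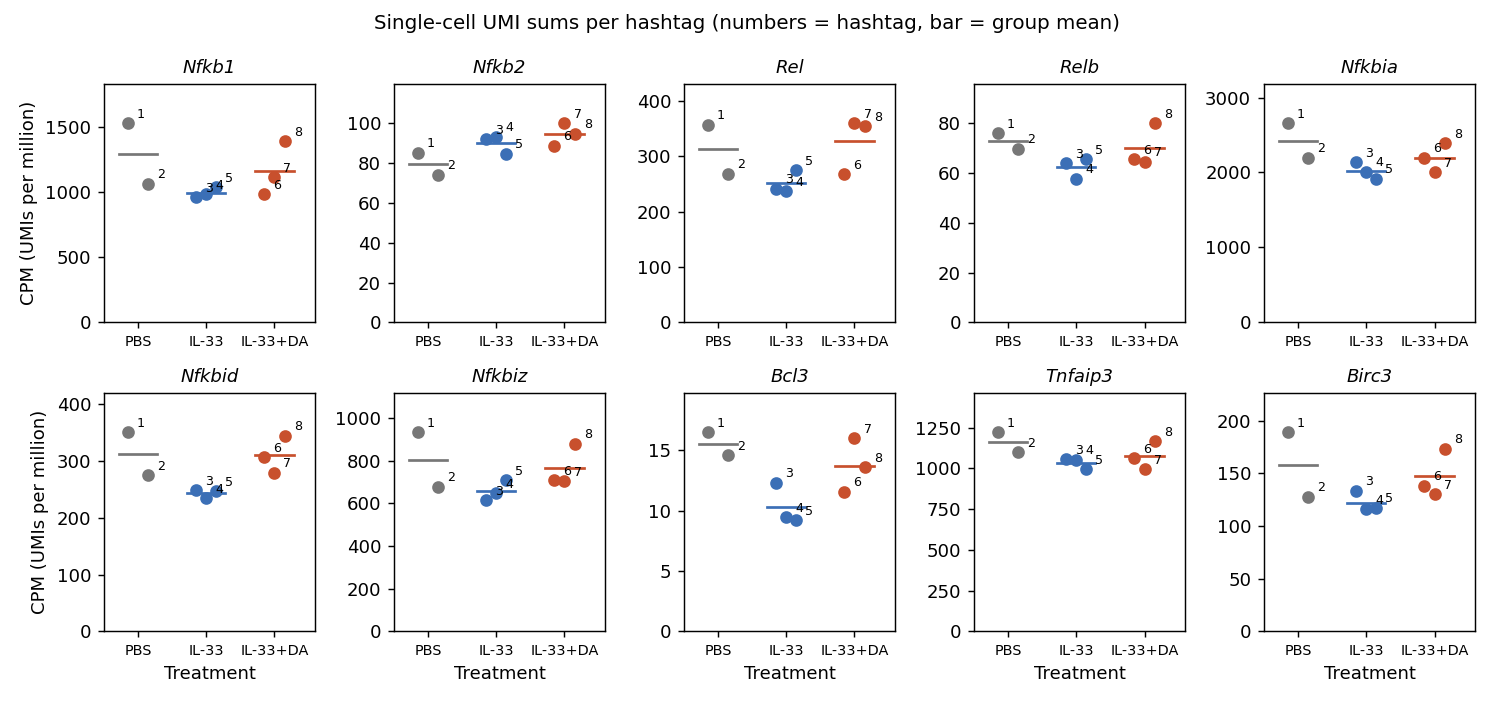
CPM of each gene in each of the 8 hashtags (number beside the point), for PBS, IL-33 and IL-33 plus dopamine (IL-33+DA), with a bar at the group mean. Hashtags 1 and 8 are the highest of their groups for Nfkb1, Nfkbia, Nfkbid, Nfkbiz, Relb, Tnfaip3 and Birc3, and the Nfkbid points of IL-33 plus dopamine lie above all IL-33 points.

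Between the authors' 6 clusters the mean levels of the 10 genes differed 1.74-fold (Bcl3) to 13.4-fold (Rel). These differences are a description, since the clusters were made from the expression of these cells. All sums were kept for the levels, so cluster 5 of hashtag 1 rests on 8 cells. Rel had the widest range. Its mean over 8 hashtags was 885 ± 25.3 CPM in cluster 3 and 66.0 ± 12.9 CPM in cluster 1, a 13.4-fold difference, and cluster 3 was the highest in 8 of 8 hashtags. In between, Rel was at 446 CPM in cluster 5, 334 in cluster 2, 95.3 in cluster 0 and 73.3 in cluster 4.

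The subunits shared a peak in cluster 3. Nfkb1 reached 2182 ± 226 CPM there, 3.75-fold above cluster 1, in 8 of 8 hashtags. Nfkb2, at 148 ± 12.4 CPM, was highest there in 7 hashtags, and Relb, at 111 ± 24.2 CPM, in 6.

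The inhibitors had another order. Nfkbia, Nfkbid and Nfkbiz were highest in cluster 2 and lowest in cluster 1 in 8 of 8 hashtags. Nfkbia reached 3748 ± 272 CPM in cluster 2 against 937 ± 70.6 CPM in cluster 1, Nfkbid 489 ± 58.0 against 145 ± 29.0 CPM, and Nfkbiz 1170 ± 77.1 against 387 ± 104 CPM. In cluster 3, where Rel and Nfkb1 peaked, Nfkbid was at 248 CPM, close to its 243 CPM in cluster 0. Tnfaip3 followed the inhibitors with its peak in cluster 2 (7 of 8 hashtags), and Birc3 was highest in cluster 3 in 6 hashtags and in cluster 2 in the other 2.

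Bcl3 had no steady order, and its peak fell in 4 different clusters over the hashtags. Cluster 5 had the deepest cells, with a median of 8142 UMIs against 4082 to 5480.5 in the others.

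**Figure D3:**
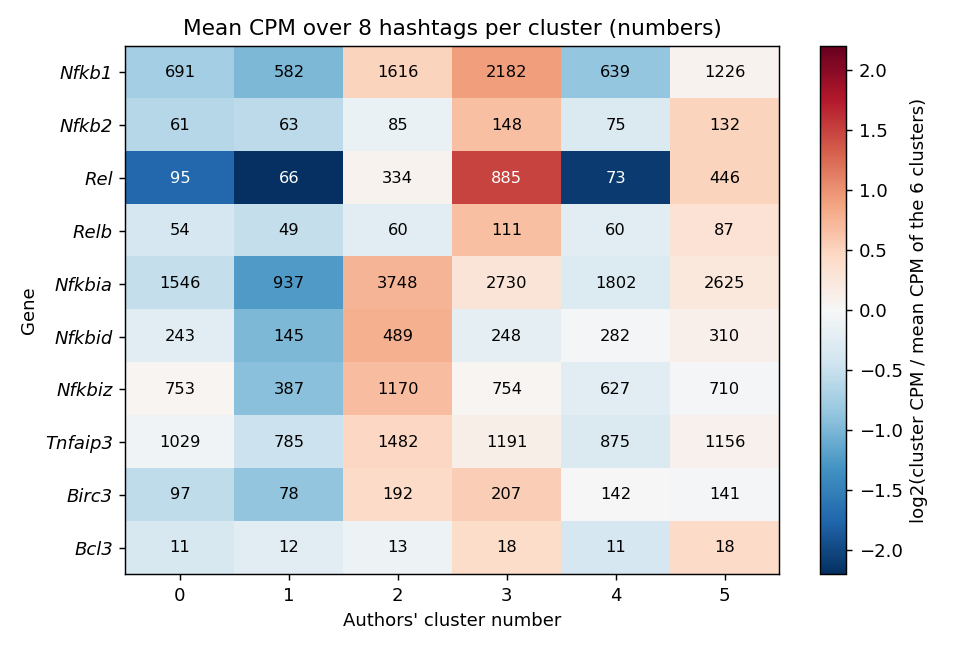
Mean CPM over 8 hashtags of each gene in each of the authors' clusters (numbers), coloured by the log2 ratio to the mean of the 6 clusters. Rel, Nfkb1, Nfkb2 and Relb are highest in cluster 3, and Nfkbia, Nfkbid, Nfkbiz and Tnfaip3 in cluster 2.

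Correlations of log2 CPM were taken over the 47 sums of a hashtag and cluster with at least 20 cells. These sums share hashtags and clusters and so are no independent points. They also gave the levels above, so the correlations restate the 2 patterns and are no separate support. Pearson's r was 0.724 to 0.95 among the 4 subunits and 0.707 to 0.878 among Nfkbia, Nfkbid, Nfkbiz, Tnfaip3 and Birc3. Between these sets it was 0.231 to 0.833, with a median of 0.575, and Bcl3 had at most 0.498 with any of the others. The sets were not cleanly apart, since Nfkb1 had 0.824 with Nfkbia and 0.724 with Relb. Among 2507 other genes of at least 50 CPM, those most like the mean of the 10 over the same sums were Pnrc1 (r = 0.961), Kdm6b (0.955), Cdkn1a (0.945), Odc1 (0.944) and Hilpda (0.942).

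The share of cells in clusters 2 and 3 together, where most of these genes peaked, differed between hashtags. It was 21.41%, 25.46% and 28.83% in the IL-33 hashtags 3, 4 and 5, and 30.27%, 32.75% and 46.92% in the dopamine hashtags 6, 7 and 8. In the PBS hashtags 1 and 2 it was 46.95% and 30.35%, so hashtags 1 and 8 stood apart from the other 6. How far the levels went with this share was not tested. Over hashtags 3, 4 and 5 Nfkb1 rose (963.11, 984.89 and 1040.51 CPM) and Nfkbia fell (2136.92, 2008.90 and 1917.91 CPM). With each cluster given equal weight, a calculation added after the data were seen, the log2 difference of dopamine against IL-33 was 0.14 for Rel in place of 0.39, 0.07 for Nfkb1 in place of 0.23 and 0.29 for Nfkbid in place of 0.36. Under equal weights Rel was at 310.52, 332.40 and 321.46 CPM with dopamine and at 284.30, 292.98 and 296.69 CPM with IL-33, so its groups no longer overlapped, and the Nfkbid groups did not overlap either. The share of all genes without overlap was not computed for this weighting, so no result about these genes is drawn from it. Cluster 5 of hashtag 8, weighted like the others, has 26 cells. Shares of clusters made from these genes are given here without a test.

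**Figure D4:**
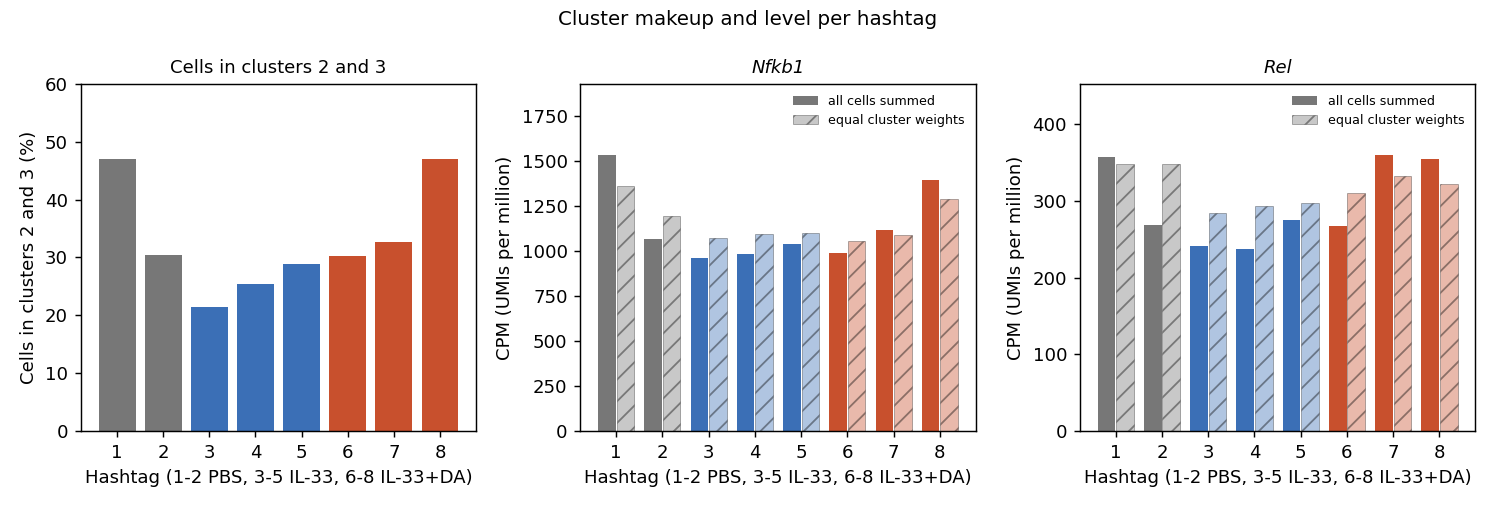
Percent of cells in clusters 2 and 3 in each hashtag (left), and CPM of Nfkb1 and Rel summed over all cells (plain bars) or with equal weight for each cluster (hatched bars), coloured by treatment. Hashtags 1 and 8 hold the largest shares, near 47%, and equal weights bring their Nfkb1 levels nearer to those of the other hashtags.

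Within single clusters, dopamine against IL-33 gave no edgeR call for any of the 10 genes. Of all genes 0.0388% passed in cluster 0, 0.075% in cluster 1, 0% in clusters 2 and 3, 0.0548% in cluster 4 and 0.266% in cluster 5. At an unadjusted p under 0.05 there were 13 of the 59 tests of these genes. They were 2 in cluster 0 (6.65% of all genes), 2 in cluster 1 (5.5%), 1 in cluster 2 (5.89%), 1 in cluster 3 (5.39%), 5 in cluster 4 (6.5%) and 2 in cluster 5 (8.36%).

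Nfkbid and Birc3 were positive in all 6 clusters, Birc3 with 0.05 to 0.28. For Nfkbid the log2 fold changes in clusters 0 to 5 were 0.32, 0.26, 0.32, 0.18, 0.27 and 0.13, and its hashtags did not overlap in clusters 0, 2, 3 and 4. Higher without overlap were 7.17% of all genes in cluster 0, 6.15% in cluster 2, 6.21% in cluster 3 and 7.12% in cluster 4. The smallest p was in cluster 2 (0.32 ± 0.08, edgeR adjusted p = 0.29).

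Rel was higher with dopamine in clusters 0 (0.37 ± 0.12), 1 (0.33 ± 0.16) and 5 (0.39 ± 0.11), near 0 in cluster 3 (-0.01 ± 0.08), its peak, and lower in cluster 4 (-0.40 ± 0.18). Its hashtags did not overlap in clusters 0, 1 and 5, where 5.96% of all genes were higher without overlap in cluster 1 and 8.41% in cluster 5. Bcl3 was higher without overlap in clusters 3 (0.79 ± 0.31) and 5 (1.07 ± 0.29, edgeR adjusted p = 0.142), and it was too scarce to be tested in cluster 4. Tnfaip3 lay between -0.20 (cluster 4) and 0.07 (cluster 5), and in cluster 4 it and Nfkbia were lower without overlap, where 5.22% of all genes were.

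A test of whether the dopamine effect was equal in all clusters found no gene of the 10 past the threshold, where 0.0686% of 8744 genes passed (edgeR F test). At an unadjusted p under 0.05 there were Nfkbiz (F = 5.58, edgeR adjusted p = 0.141), Rel (F = 4.87, adjusted p = 0.245), Nfkbia (F = 4, adjusted p = 0.4) and Bcl3 (adjusted p = 0.699), against 6.05% of all genes. Nfkbiz ran from 0.34 ± 0.12 in cluster 1 to -0.23 ± 0.09 in cluster 4.

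The comparison of IL-33 (hashtags 3, 4 and 5) with PBS (hashtags 1 and 2) asked what IL-33 by itself went with. It shares its IL-33 hashtags with the comparison above. The log2 fold change was negative for 9 of the 10 genes and positive for Nfkb2 (0.16 ± 0.11). None passed edgeR, where 0.704% of 10506 genes did. At an unadjusted p under 0.05 there were 8, against 13.4% of all genes, and DESeq2 called 2, Nfkb1 and Nfkbid.

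Nfkbia was at 2654.60 and 2194.90 CPM with PBS and at 2136.92, 2008.90 and 1917.91 CPM with IL-33, a log2 fold change of -0.30 ± 0.08 (edgeR adjusted p = 0.0923). Nfkbid was at 350.61 and 274.85 CPM with PBS and at 234.38 to 248.68 CPM with IL-33 (-0.38 ± 0.10, edgeR adjusted p = 0.0947). Nfkb1 was at 1529.79 and 1065.14 CPM with PBS and at 963.11 to 1040.51 CPM with IL-33 (-0.41 ± 0.11, edgeR adjusted p = 0.103). In these 3 genes both PBS hashtags lay above all IL-33 hashtags, with hashtag 1 far above hashtag 2.

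In all, 6 of the 10 were lower with IL-33 without overlap, Nfkb1, Relb, Nfkbia, Nfkbid, Bcl3 and Tnfaip3, where 13.6% of all genes were, and none was higher, where 20.9% were. Hashtag 1, of 311 cells, had the highest value of its comparison in all but Nfkb2. Leaving out hashtag 2 makes hashtag 1 the single PBS sample, so no count of genes is given for that run. Without hashtag 1 the log2 fold changes were nearer 0, at -0.13 for Nfkb1, -0.15 for Nfkbia, -0.20 for Nfkbid, -0.12 for Rel, -0.07 for Nfkbiz and -0.09 for Birc3. With equal cluster weights, where cluster 5 of hashtag 1 has 8 cells, the difference was -0.23 for Nfkb1, -0.15 for Nfkbia and -0.23 for Nfkbid.

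Against the same PBS hashtags, IL-33 plus dopamine gave log2 fold changes from -0.18 (Nfkb1, Nfkbia and Bcl3) to 0.23 (Nfkb2), and 2 of the 10 were positive. None passed edgeR, and 0% of 10612 genes did. At an unadjusted p under 0.05 there was none of the 10, against 5.14% of all genes, and DESeq2 called none of the 10. Nfkb2 was the 1 gene higher without overlap (14.9% of all genes), and none was lower (9.09%). The interval of Nfkbid was -0.32 to 0.26 and that of Rel -0.30 to 0.39.

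**Figure D5:**
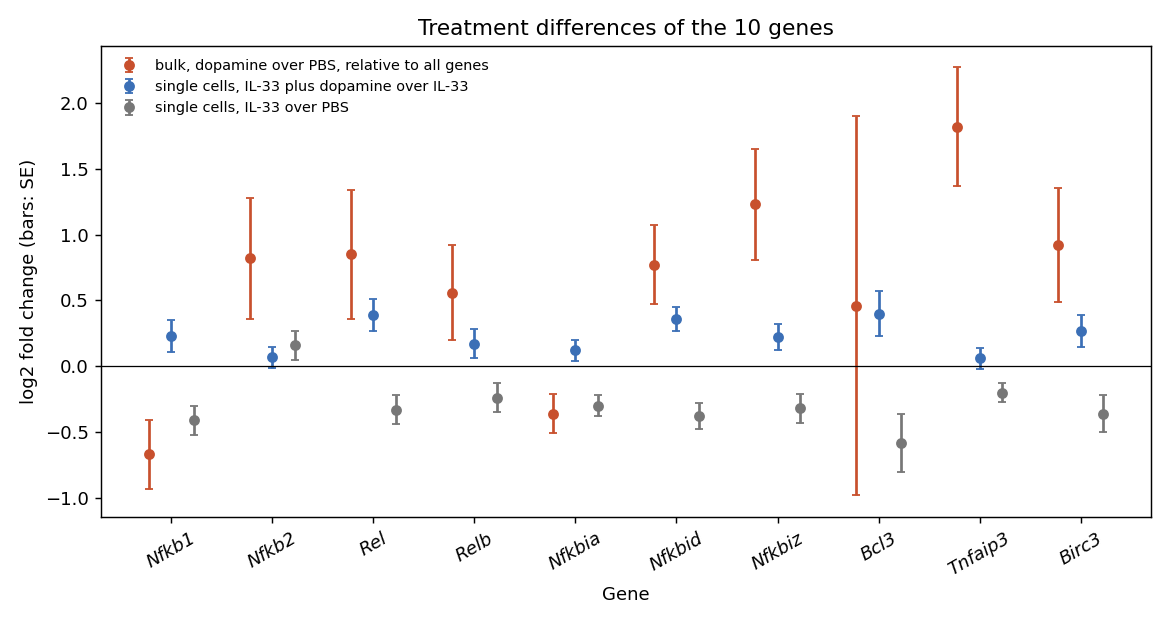
Log2 fold changes with standard errors of the 10 genes for dopamine over PBS in bulk (relative to the median of all genes), and for IL-33 plus dopamine over IL-33 and IL-33 over PBS in the droplet pool, which share the IL-33 hashtags. Tnfaip3 is at 1.82 in bulk and at 0.06 in the pool, and Bcl3 has by far the widest bar in bulk.

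Other genes of the pathway were counted from lists set by name, also with earlier results of these data known. Of 24 receptor and adaptor genes, 23 had a positive bulk log2 fold change with dopamine and 12 were higher without overlap (11 after scaling), against 23.5% of all genes (13.4% after scaling), and none passed limma. The median was 0.64 relative to all genes, against 0.79 for the 10 genes. Among the smallest p-values were those of Irak2, a kinase adaptor of the IL-33 receptor (137 ± 53.1 against 36.0 ± 19.1 TPM, n = 3), Tnfrsf1b, a TNF receptor (136 ± 19.2 against 39.2 ± 21.5 TPM), and Map3k14, the kinase of the non-canonical pathway. Traf1 was the gene with a negative value, -0.02. In the droplet pool the same list had a median of 0.02 for dopamine over IL-33, with 14 of 23 tested genes positive and none passing edgeR.

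Of 20 kinases, partner subunits and regulators, none passed limma. In bulk 7 were higher without overlap and 2, Commd1 and Nfkbib, were lower (4 and 2 after scaling), against 23.5% and 6.57% of all genes (13.4% and 15.3% after scaling). Rela, the main partner of the product of Nfkb1, was at 100 ± 29.8 TPM with dopamine and 38.6 ± 18.1 TPM with PBS (limma adjusted p = 0.102). In the droplet pool Rela was at 58.8 ± 1.81 CPM against 52.1 ± 1.25 CPM with IL-33, without overlap (log2 fold change 0.18, edgeR adjusted p = 0.533).

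Of 23 tested NF-kB target genes, 7 were higher without overlap in bulk, and after scaling 3 were higher and 3 lower, with a median of 0.01 relative to all genes. The shares over all genes were 23.5% higher before scaling, and 13.4% higher and 15.3% lower after it. Bcl2a1b, a survival gene, was at 232 ± 68.6 against 82.1 ± 38.9 TPM, and Tnf was at 122 ± 14.3 against 41.3 ± 21.5 TPM (limma adjusted p = 0.0832 and 0.0857). On the other side Ebi3, a cytokine subunit, was at 27.9 ± 6.75 against 53.1 ± 19.8 TPM (limma adjusted p = 0.201), and Tnfsf11 and Cd83 also had negative log2 fold changes, -0.49 and -0.28. In the droplet pool none passed edgeR for dopamine over IL-33. Gadd45b, a stress response gene, was at 2450 ± 87.5 against 2100 ± 205 CPM, and Ltb, the lymphotoxin subunit, was at 713 ± 117 against 909 ± 96.6 CPM. For IL-33 over PBS, 1 target passed. Csf2, the cytokine GM-CSF, rose from 971 ± 157 CPM (n = 2) to 1490 ± 141 CPM (n = 3), a log2 fold change of 0.58 ± 0.10 (edgeR adjusted p = 0.0127).

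The immediate early and handling genes moved in that comparison as well. Of 22 genes, 4 fell in IL-33 against PBS, Junb, Atf3, Fosb and Jund, and none rose (edgeR). No gene passed in this comparison when all 8 hashtags entered the same fit. The list's summed level was 16883 and 14773 CPM in the PBS hashtags, 12794 to 13625 CPM in the IL-33 hashtags, and 13534, 12467 and 17342 CPM in the dopamine hashtags 6, 7 and 8. Hashtags 1 and 8, the highest for most of the NF-kB genes, were also the highest for this list. Its part in their differences was not tested.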

How the data were processed

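Bulk values were TPM that the authors deposited for 6 libraries. The droplet values were UMI counts that the authors deposited per gene and cell, with hashtag, treatment and cluster, and the percent of mitochondrial UMIs, at most 7.5, as deposited. Per the submitters' processing notes the tools were cutadapt 2.10, STAR 2.7.5c, RSEM 1.3.3, Cell Ranger 6.1.1 and Seurat 4.0.2, with build mm10. Settings and doublet handling are not given in the sources used here. Doublets were not called.

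Bulk genes that reached a TPM of 1 in 3 or more of the 6 libraries were tested with limma 3.58.1 (eBayes with trend). The scale was log2(TPM + 1), so fold changes of scarce genes depend on the added 1. For Bcl3 the log2 fold change was 0.95 on this scale and 0.39 with a pseudocount of 0.1. Counts were summed per hashtag and tested with edgeR 4.0.16 (TMM, filterByExpr, quasi-likelihood), with DESeq2 1.42.0 as an alternative, all in R 4.3.3. Tests and correlations on sums per hashtag and cluster needed 20 cells per sum; cluster levels, their order and equal-weight levels used every sum, the smallest of 8 cells. P-values were adjusted by Benjamini-Hochberg over all genes tested, with a threshold of 0.05. Differences between clusters in the dopamine effect were tested with an interaction term. The scripts were tested on simulated data. Errors after ± are SD for levels and SE for log2 fold changes.

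The 10 genes, the further lists and the rule for naming genes (the smallest p per list and direction, at most 4) were chosen with earlier results of these data known. A gene that this rule names is not reported here. Gene coordinates and promoters are on GRCm38 (mm10), with promoters from RefSeq.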

Additional observations from a re-analysis of the deposited data

Results flagged for a closer look

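Nfkbia differed in direction between clusters for dopamine over IL-33. The log2 fold change was 0.13 in cluster 0, where every dopamine hashtag lay above every IL-33 hashtag (7.17% of all genes). It was -0.15 in cluster 4, where every dopamine hashtag lay below (5.22% of all genes). This pair of clusters was not tested against each other, and the test over all clusters had an adjusted p of 0.4 (edgeR).

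Zfp36, an immediate early gene, was higher without overlap with dopamine in the bulk libraries (log2 fold change 1.92, limma adjusted p = 0.0832), where 23.5% of all genes were. In the droplet pool it was lower without overlap (-0.31, edgeR adjusted p = 0.501), where 6.93% were. It was found by searching the 10 genes and the genes named from the lists for opposite directions without overlap. The difference between the data sets was not tested, and sex and library type differ between them.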

How the results depend on the processing

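For dopamine against PBS in bulk, none of the 10 genes passed except with array weights (6) and in leaving out a library (0 to 6, the 6 without PBS library 1). Over all genes the calls, 4 in the main analysis, were 21 with quantile normalization, 2 with a pseudocount of 5, 0 with no filter, 2 with a mean TPM of at least 5, 2800 with array weights and 0 to 1536 in leaving out a library. With the replicate number as a block 15 genes passed and 0 of the 10. The correlations over genes of equally numbered libraries, centred on the mean of their group, were 0.0186, -0.071 and -0.00177. They show no pairing by number but cannot exclude a shared mouse or day, which the labels do not state. Signs turned for Nfkbia at -0.41 (median-of-ratios), 0.29 relative to all genes (quantile) and -0.08 (array weights); for Nfkb1 at 0.16 (array weights); and for Bcl3 at -0.21 relative to all genes (pseudocount of 0.1). In leaving out a library Nfkb1 ran from -0.38 to 0.11, Nfkbia from 0.00 to 0.29, and Bcl3 from -0.82 to 2.58 (-1.33 to 2.1 relative). No paired analysis was possible for the hashtags because their numbers are not shared between groups. For IL-33 plus dopamine against IL-33, 0 of the 10 passed in every alternative run, while all genes called, 3 in the main analysis, were 29 by DESeq2, 9 for cells between the 10th and 90th percentile of UMIs, and 1 to 16 in leaving out a hashtag. Tnfaip3 turned to -0.01 with equal cluster weights and ran from -0.03 (without hashtag 8) to 0.12 in leaving out a hashtag. For IL-33 against PBS, 0 passed in the main analysis, 2 by DESeq2, 4 with no filter and 0 to 5 in leaving out a hashtag, and all genes called, 74 in the main analysis, were 122, 322, 0 (all hashtags together), 34 (percentile of UMIs) and 5 to 124. Nfkb2 turned to -0.01 with equal cluster weights. For IL-33 plus dopamine against PBS, 0 genes were called in the main analysis. There Nfkbid turned to 0.00 (no scaling) and 0.06 (equal cluster weights), and Rel to -0.01 (percentile of UMIs) and -0.11 (equal cluster weights). In leaving out a hashtag Nfkb1 ran from -0.42 to 0.11, Rel from -0.16 to 0.26, Nfkbid from -0.21 to 0.15, Nfkbiz from -0.32 to 0.15 and Birc3 from -0.39 to 0.18. Leaving out a hashtag gave 23 genes at most for the difference between clusters (6 in the main analysis), and 11 to 112 within clusters (32 in the main analysis). The causes were not tested.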
